A study of Homo sapiens and Mus musculus with 18 samples.

Results

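Tenascin C, periostin, thrombospondin 1, SPARC and TGFBI are matricellular proteins, secreted glycoproteins that sit in the extracellular matrix and change how cells hold to it and signal rather than bear load themselves. Their genes were picked by symbol: TNC, POSTN, THBS1, SPARC and TGFBI are 5 of the 58735 genes in the human table, and Tnc, Postn, Thbs1, Sparc and Tgfbi are 5 of the 54532 genes in the mouse table. All 5 passed the filter on low counts in both species, among 17175 human and 16287 mouse genes tested. Bulk RNA-seq covered 10 libraries of the human line Met5a, immortalised mesothelial cells, and 8 tumours of the mouse KPCA model. The Met5a groups were cells overexpressing Amhr2-V1, which the series calls an active receptor (V1, 4 libraries), cells overexpressing Amhr2-V3, called inactive (V3, 3 libraries), and controls (CTR, 3 libraries). Whether CTR cells carried an empty vector, and whether a group is 1 clone or several cultures, the labels do not say. The tumour groups were taken from Amhr2 knock-out mice (KO, 4 tumours), Amhr2 heterozygous mice (Het, 2 tumours) and wild-type C57BL6J mice (WT, 2 tumours). The mice's ages, the cells in which the Amhr2 allele is lost and the Amhr2 genotype of the KPCA cells are not given. In the deposited table both WT columns carry a suffix, extra, that no KO or Het column has, and what it marks is not given. The growth notes list KPCA as a cultured line. In bulk RNA of a tumour, fewer cells of a type cannot be told apart from less RNA per cell.

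AMHR2 is the receptor that binds anti-Müllerian hormone, a ligand of the TGF-beta family, and passes its signal to the SMAD proteins that BMPs also use. Matricellular genes are low in most resting adult tissues and high in healing wounds, fibrosis and tumour stroma, and several of them are long-known targets of TGF-beta. Mesothelial cells line the body cavities, make such proteins when they are injured or take on a mesenchymal shape, and form the surface on which ovarian carcinoma cells settle.

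Total counts were 15489888 to 21642906 in the Met5a libraries and 17746902 to 28070669 in the tumours. AMHR2 had 68.1, 20.6, 1.98 and 5253 CPM (counts scaled to library size, with TMM factors) in the V1 libraries numbered 1 to 4 and 6061, 61.8 and 2.72 CPM in V3 1 to 3, against 0 counts in each CTR library, so both overexpressing groups held libraries with little and with much of it. Mouse Amhr2 had 8, 11, 3 and 3 counts in KO tumours, 11 and 5 in Het tumours and 0 and 5 in WT tumours, too few to check the labels. CTR 3 and V1 1 (best correlation with any other library 0.942 and 0.947) and KO543 and WT438 (0.951 and 0.964) stood apart from the rest. They also had the highest mitochondrial shares, 5.09 and 4.93% of counts in CTR 3 and V1 1 and 4.33 and 4.87% in KO543 and WT438. Of the mesothelial markers in Met5a, KRT8 (746 to 3141 CPM), KRT18 (326 to 1609 CPM) and MSLN (10.6 to 70.3 CPM) were present, CALB2 ran from 0.446 to 57.5 CPM, UPK3B and LRRN4 reached at most 3.29 and 4.31 CPM, and WT1 and KRT19 were at 0 in some libraries. Separate cultures or technical repeats are not told apart by the labels, so each p-value covers the spread between libraries and no more.

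The human promoters of the 5 genes are shown because the SMAD proteins that carry the AMHR2 signal bind DNA at promoters and other regulatory stretches. Each runs from 250 bases before to 50 bases after the RefSeq transcription start, 5′ to 3′ on the gene's strand (RefSeq, GRCh38.p14). Capitals mark every match, on either strand, to 6 motifs. The SMAD box was searched as CAGAC. The SMAD palindrome, which holds a SMAD box core on each strand, was searched as GTCTAGAC. The GC-rich element that BMP SMADs bind was searched as GGCGCC. The letters for the TEAD factors of the Hippo pathway were GGAATG. The site for AP-1, the Fos and Jun pair, was searched as TGANTCA. The letters of the TATA box were TATAAA.
TNC, chr9:115118108-115118407, minus strand:
TNC: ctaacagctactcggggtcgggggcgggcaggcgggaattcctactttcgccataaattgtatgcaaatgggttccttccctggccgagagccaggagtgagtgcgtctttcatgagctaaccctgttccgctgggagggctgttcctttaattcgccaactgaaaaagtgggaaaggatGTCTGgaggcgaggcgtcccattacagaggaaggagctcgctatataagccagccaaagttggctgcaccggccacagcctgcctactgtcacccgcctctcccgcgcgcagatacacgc
THBS1, chr15:39580829-39581128, plus strand:
THBS1: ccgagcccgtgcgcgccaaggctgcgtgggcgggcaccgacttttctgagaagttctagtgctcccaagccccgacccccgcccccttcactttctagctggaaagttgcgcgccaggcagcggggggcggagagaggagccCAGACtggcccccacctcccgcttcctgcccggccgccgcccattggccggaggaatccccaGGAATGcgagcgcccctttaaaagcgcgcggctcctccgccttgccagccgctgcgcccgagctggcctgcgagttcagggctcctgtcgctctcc
POSTN, chr13:37598719-37599018, minus strand:
POSTN: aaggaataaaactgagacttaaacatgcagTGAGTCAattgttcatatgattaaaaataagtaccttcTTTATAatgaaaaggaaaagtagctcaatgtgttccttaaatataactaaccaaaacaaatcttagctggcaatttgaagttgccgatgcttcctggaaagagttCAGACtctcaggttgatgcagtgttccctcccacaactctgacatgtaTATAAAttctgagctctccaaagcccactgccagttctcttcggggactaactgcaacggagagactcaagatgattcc
TGFBI, chr5:136028738-136029037, plus strand:
TGFBI: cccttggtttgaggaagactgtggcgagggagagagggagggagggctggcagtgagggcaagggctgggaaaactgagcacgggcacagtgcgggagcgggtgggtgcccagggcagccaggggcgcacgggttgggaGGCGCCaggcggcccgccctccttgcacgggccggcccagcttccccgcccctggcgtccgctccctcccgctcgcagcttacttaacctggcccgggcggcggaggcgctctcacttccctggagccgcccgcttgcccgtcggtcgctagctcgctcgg
SPARC, chr5:151686866-151687165, minus strand:
SPARC: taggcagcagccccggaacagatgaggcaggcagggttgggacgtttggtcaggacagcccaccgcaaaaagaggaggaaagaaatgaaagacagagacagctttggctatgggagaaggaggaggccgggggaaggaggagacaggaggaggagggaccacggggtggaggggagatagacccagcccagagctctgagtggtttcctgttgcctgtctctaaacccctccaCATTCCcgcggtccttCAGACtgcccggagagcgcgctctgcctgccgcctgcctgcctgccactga

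A SMAD box stood in the windows of TNC, THBS1, POSTN and SPARC, and in 45.3% of all 35116 promoters of this length. TGFBI had none and held the only GGCGCC among the 5, beginning 111 bases before the start, a sequence found in 19.2% of promoters. The TEAD letters stood 46 bases before the start of THBS1 and, on the other strand, 17 bases before the start of SPARC (14.03% of promoters). POSTN alone had AP-1 letters (7.71% of promoters) and TATA letters, 29 bases before the start and again on the other strand 182 bases before it (11.5% of promoters). No window held the SMAD palindrome, which stood in 0.202% of promoters. The GC content was 72.7% for TGFBI, 70.0% for THBS1, 61.3% for SPARC, 57.3% for TNC and 39.0% for POSTN.

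In Met5a the 5 genes spanned a wide range of levels. Per length, as the authors' FPKM (fragments scaled to gene length and library size), THBS1 averaged 173 ± 125 over the 10 libraries (SD), SPARC 116 ± 44.0, TGFBI 43.8 ± 23.7, TNC 25.6 ± 22.4 and POSTN 18.1 ± 10.4. SPARC was above TGFBI in FPKM in 10 of 10 libraries, TGFBI above TNC in 8 and TNC above POSTN in 7, but THBS1 was above SPARC in only 6 of 10. The order of THBS1 and SPARC therefore did not hold beyond their spread, and neither did that of TNC and POSTN. By FPKM rank among 19951 protein-coding genes, THBS1 ran from 45th to 2461st, TNC from 404th to 7745th and POSTN from 1270th to 8374th, while SPARC stayed between 149th and 699th. TGFBI ranked 416th to 2048th.

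**Figure D1:**
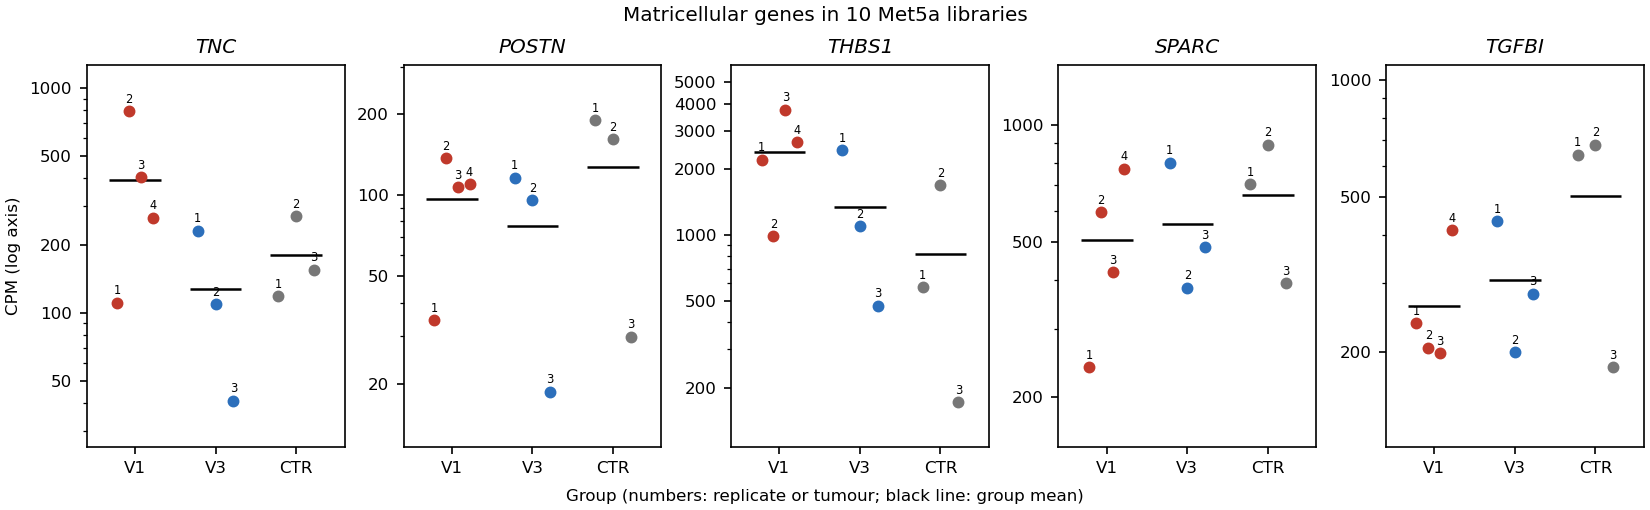
CPM (log axis) of TNC, POSTN, THBS1, SPARC and TGFBI in each Met5a library of V1, V3 and CTR, with replicate numbers beside the points and black lines at group means. The 3 groups overlap for every gene: the lowest V1 library of THBS1 (986 CPM) lies under the highest CTR library (1697 CPM).

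The comparison of V1 with CTR asks what the active receptor form goes with. TNC and THBS1 had the higher means in V1, and TGFBI, POSTN and SPARC the lower. None of these differences was called: 0 of 5 passed edgeR's quasi-likelihood test, where 0.00582% of all tested genes did (1 of 17175). An unadjusted p under 0.05 was found for 0 of 5, against 7.71% of genes. DESeq2 and limma also called 0 of 5, while edgeR without a filter on low counts called THBS1 (edgeR adjusted p = 0.0410).

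TNC (ENSG00000041982, chromosome 9, 115019578 to 115118257, minus strand, GRCh38) encodes tenascin C, which loosens cell adhesion to fibronectin. Its CPM values were 111, 791, 402 and 266 in V1 1 to 4, against 119, 270 and 156 in CTR 1 to 3. V1 2 and V1 3 were above every CTR library, V1 4 lay just under the highest CTR library and V1 1 was the lowest of all. V1 2 and V1 3 had the least AMHR2 RNA of the V1 libraries (20.6 and 1.98 CPM), and V1 4 the most (5253 CPM). The log2 fold change was 1.11 (SE 0.65, 95% interval -0.31 to 2.53, edgeR adjusted p = 0.713), and a two-sided exact permutation test of log2 CPM gave p = 0.314. Without V1 2 the log2 fold change was 0.52, and without CTR 2 it was 1.53.

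THBS1 (ENSG00000137801, chromosome 15, 39581079 to 39599466, plus strand) encodes thrombospondin 1, which binds CD47 and CD36 and can release TGF-beta from its latent complex. Its CPM values were 2213, 986, 3746 and 2661 in V1 1 to 4, against 579, 1697 and 172 in CTR 1 to 3. Of the V1 libraries 3 were above every CTR library, and V1 2 lay under CTR 2. AMHR2 stood at 1.98 CPM in V1 3, the highest library for THBS1, and at 5253 CPM in V1 4, the next. The mean was 2402 ± 1142 CPM in V1 and 816 ± 790 CPM in CTR (SD, n = 4 and 3), a log2 fold change of 1.56 (SE 0.74, interval -0.06 to 3.18, edgeR adjusted p = 0.662), with p = 0.0857 in the exact permutation test. CTR 2 bore on this value most: without it the log2 fold change was 2.69, and without CTR 3 it was 1.08. Of the genes that overlap THBS1, the one with the most reads had 537 counts over all 10 libraries, against 2912 or more for THBS1 in each library, and strand use in counting was not given in the sources used here.

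Periostin and TGFBI share fasciclin domains and bind collagens and integrins, and periostin also helps BMP1 to start lysyl oxidase for collagen crosslinking. TGFBI (ENSG00000120708, chromosome 5, 136028895 to 136063818, plus strand) had CPM values of 237, 205, 198 and 412 in V1 1 to 4, against 643, 681 and 183 in CTR 1 to 3. All V1 libraries were under CTR 1 and CTR 2 but above CTR 3. The log2 fold change was -0.93 (SE 0.43, interval -1.88 to 0.02, edgeR adjusted p = 0.656), with p = 0.257 in the exact permutation test. Without CTR 3 the value was -1.33, and without CTR 2 it was -0.64. POSTN (ENSG00000133110, chromosome 13, 37562583 to 37598844, minus strand) had CPM values of 34.3, 137, 107 and 110 in V1 1 to 4, against 190, 162 and 29.9 in CTR 1 to 3. V1 1 and CTR 3 had the lowest levels of both groups, and the difference on the log2 scale, -0.39 (SE 0.67, edgeR adjusted p = 0.918), was 0.02 without CTR 1.

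SPARC (ENSG00000113140, chromosome 5, 151661096 to 151687165, minus strand) encodes a calcium-binding protein that binds collagen and helps cells lay it down. Its CPM values were 239, 596, 419 and 772 in V1 1 to 4, against 706, 889 and 391.98 in CTR 1 to 3. The groups overlapped over most of their range, and the log2 fold change was -0.39 (SE 0.41, interval -1.27 to 0.50, edgeR adjusted p = 0.853). It was -0.65 without CTR 3 and -0.11 without CTR 2.

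V3 against CTR shows what the inactive form goes with, against the same 3 control libraries. Of the 5 genes 4 had the lower mean in V3, the exception being THBS1, and 0 of 5 passed edgeR's test, as did 0% of the 17175 genes, with no unadjusted p under 0.05 where 4.23% of all genes had one. TNC stood at 232, 109 and 40.7 CPM and POSTN at 116, 95.9 and 18.7 CPM in V3 1 to 3, against the CTR values above. THBS1 stood at 2453, 1095 and 475 CPM, SPARC at 800, 382 and 485 CPM, and TGFBI at 434, 199 and 282 CPM in V3 1 to 3. V3 1 was the highest V3 library for each of the 5 genes, and every V3 group overlapped with CTR. The log2 fold changes were -0.51 for TNC, -0.73 for POSTN, 0.72 for THBS1, -0.25 for SPARC and -0.72 for TGFBI (SE 0.44 to 0.76, edgeR adjusted p = 1.00 for each). Exact permutation p-values were 0.4 to 0.7, where 20 arrangements cannot go below 0.1, and without V3 1 the THBS1 value was -0.055.

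V1 against V3 sets the active form beside the inactive form. TNC had the largest difference of the 5, at 393 ± 291 CPM in V1 and 127 ± 97.1 CPM in V3 (SD, n = 4 and 3). V1 2, V1 3 and V1 4 were above every V3 library, and V1 1 lay between V3 1 and V3 2. The log2 fold change was 1.62 (SE 0.66, interval 0.17 to 3.07). Its unadjusted edgeR p of 0.0313 is the only one under 0.05 among the 5 genes here, where 4.01% of all genes have one, and the adjusted p was 0.985. An exact permutation test gave p = 0.114. The value ran from 1.03 without V1 2 to 2.39 without V3 1, and edgeR without a filter on low counts called it (edgeR adjusted p = 0.0292). With each library left out, 221 to 1214 of all genes had an unadjusted p under 0.05 in V1 against V3, 318 to 1101 in V3 against CTR and 879 to 1738 in V1 against CTR. The other log2 fold changes were 0.84 for THBS1, 0.34 for POSTN, -0.13 for SPARC and -0.21 for TGFBI (SE 0.41 to 0.72, edgeR adjusted p = 0.985 to 0.996). No gene of the 5 had groups that did not overlap in any Met5a comparison, against 6.61% of tested genes in V1 against CTR, 10.1% in V3 against CTR and 4.92% in V1 against V3. Without both CTR 3 and V1 1, which stood apart, the log2 fold changes in V1 against CTR were 1.33 for TNC, 1.13 for THBS1, -1.28 for TGFBI, -0.57 for POSTN and -0.42 for SPARC. TNC was 1.93 in V1 against V3, and in V3 against CTR POSTN was -1.19 and THBS1 0.24. No gene of the 5 was called without them (edgeR adjusted p at least 0.607).

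The libraries with by far the most AMHR2 RNA, V1 4 and V3 1, lay close together for all 5 genes although they carry different forms. V1 4 over V3 1 was 1.14 for TNC (266 and 232 CPM), 1.08 for THBS1 (2661 and 2453 CPM), 0.964 for SPARC (772 and 800 CPM), 0.948 for TGFBI (412 and 434 CPM) and 0.946 for POSTN (110 and 116 CPM). Over all genes these libraries were also each other's best match (r = 0.991), so the closeness is not particular to the 5 genes. CTR 2, with 0 AMHR2 counts, had a best correlation of 0.987 with any other library, which only V1 4 and V3 1 exceeded. In CTR 2 TNC stood at 270, THBS1 at 1697, SPARC at 889, TGFBI at 681 and POSTN at 162 CPM. CTR 2 was thus under both libraries for THBS1 and above both for TNC, SPARC, TGFBI and POSTN. The part of AMHR2 level in the closeness of V1 4 and V3 1 was not tested. Each ratio sets 1 library beside 1 library and has no replicate check.

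**Figure D2:**
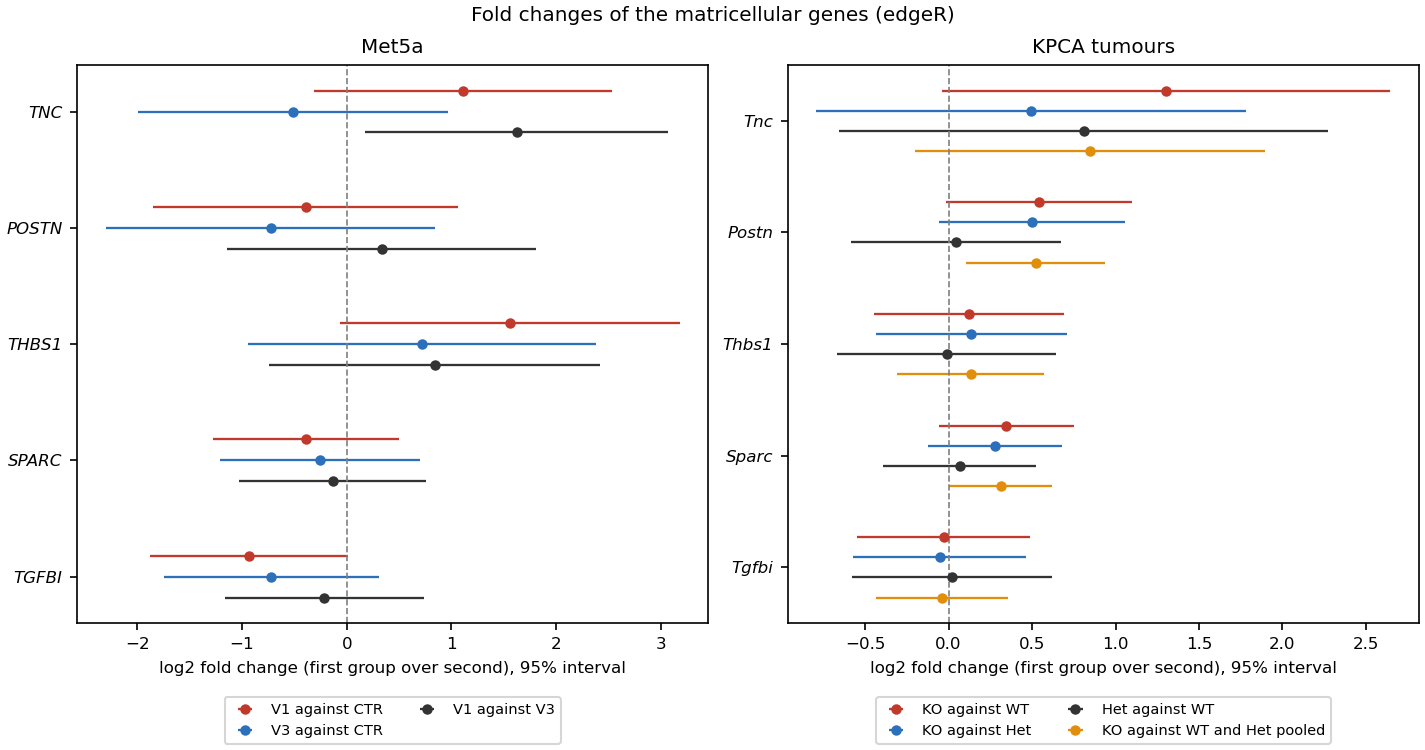
Log2 fold changes of the 5 genes (edgeR, first group over second) with 95% intervals, for 3 Met5a comparisons and 4 tumour comparisons. Every interval runs over 0 except those of TNC in V1 against V3 (0.17 to 3.07) and of Postn (0.11 to 0.94) and Sparc (0.00 to 0.62) in KO against WT and Het pooled, before any adjustment.

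In the tumours Sparc was among the highest genes of all. Its FPKM averaged 1010 ± 137 over 8 tumours (SD), ranking 19th to 47th of 22046 protein-coding genes. Thbs1 averaged 188 ± 36.8 FPKM, Tgfbi 177 ± 28.8, Tnc 51.6 ± 37.4 and Postn 22.1 ± 6.08. Sparc was above Thbs1 in 8 of 8 tumours, Tgfbi above Tnc and Tnc above Postn in 7 of 8 each, while Thbs1 was above Tgfbi in only 5 of 8, so that pair had no settled order.

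**Figure D3:**
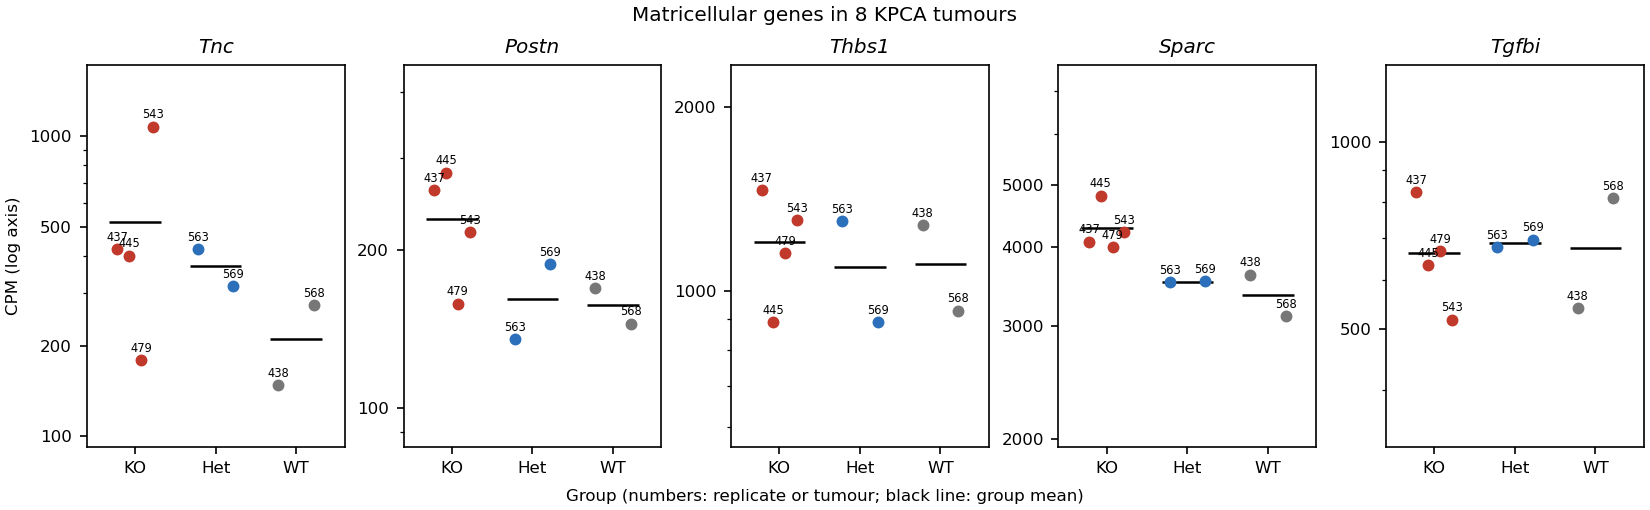
CPM (log axis) of Tnc, Postn, Thbs1, Sparc and Tgfbi in each tumour of KO, Het and WT mice, with tumour numbers beside the points and black lines at group means. The 4 KO tumours of Sparc (3994 to 4806 CPM) lie above the Het and WT tumours (3110 to 3615 CPM), and KO543 (1077 CPM) stands apart for Tnc.

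KO against WT and KO against Het ask how tumours differ when the host lacks Amhr2. In both, 4 of the 5 genes had higher means in KO, Tgfbi being the exception, and 0 of 5 passed edgeR's test, as did 0% of the 16287 genes. Unadjusted p-values under 0.05 were also 0 of 5 in each, where 3.98% of genes had one in KO against WT and 1.71% in KO against Het. Sparc (ENSMUSG00000018593, chromosome 11, 55394500 to 55423183, minus strand, positions as in the deposited table) stood at 4070, 4806, 3994 and 4211 CPM in KO437, KO445, KO479 and KO543. It stood at 3515 and 3530 CPM in Het563 and Het569 and at 3615 and 3110 CPM in WT438 and WT568. Every KO tumour was above every Het and WT tumour. The log2 fold change was 0.34 against WT (SE 0.18, edgeR adjusted p = 0.950) and 0.28 against Het (SE 0.18, edgeR adjusted p = 1.00). The exact permutation p was 0.0667 in each, the smallest that 15 arrangements can give. Groups did not overlap for 11% of all genes in KO against WT and for 11.7% in KO against Het, and for 1 of the 5 in each, which is Sparc.

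With WT and Het tumours pooled, since the series text sets 2 groups side by side without naming them, Sparc was 4270 ± 368 CPM in KO and 3443 ± 226 CPM in WT and Het (SD, n = 4 each). The fold was 1.24, a log2 fold change of 0.31 (SE 0.14, interval 0.00 to 0.62), higher in 4 of 4 KO tumours than in any of the others. The exact permutation p was 0.0286, the smallest that 70 arrangements can give, while the unadjusted edgeR p of 0.0486 became 0.999 after adjustment over 15205 genes. Sparc was 1 of 5 whose groups did not overlap, against 2.44% of all genes. With each tumour left out in turn the log2 difference was 0.25 to 0.34. The groups then stay apart by construction, so the exact permutation p of 0.0286 is again only the smallest that 35 arrangements can give. Without both KO543 and WT438 the KO tumours were higher by 0.33, where 20 arrangements cannot go below an exact p of 0.1. Summed fibroblast markers (9 of 9 tested, none at 0) were also higher in each KO tumour, at 10426 to 13236 CPM, against 9501 to 9661 CPM in Het and 8037 to 8312 CPM in WT. Most of that sum is Col1a1 and Col3a1: Col1a1 averaged 5700 CPM in KO and Col3a1 4994 CPM. Of the 9 markers (0 called) 6 were higher and 3 lower in KO against WT and Het pooled (median log2 fold change 0.23). An unadjusted p under 0.05, held by 4.14% of all genes, was found for 3 of the 9. These were Pdgfrb at 0.57, Col1a1 at 0.52 and Fap at 0.52, while Pdgfra was at 0.02. The 3 lower markers were Dpt at -0.35, Cd34 at -0.14 and Dcn at -0.06. The part of fibroblast content in the Sparc difference was not tested.

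Postn (ENSMUSG00000027750, chromosome 3, 54361109 to 54391037, plus strand) stood at 260, 281, 158 and 216 CPM in KO437, KO445, KO479 and KO543, at 135 and 188 CPM in Het563 and Het569 and at 169 and 145 CPM in WT438 and WT568. KO437, KO445 and KO543 were above all Het and WT tumours, and KO479 lay among them. The log2 fold change was 0.54 against WT, 0.50 against Het and 0.52 against both pooled (SE 0.19). The pooled value had an unadjusted edgeR p of 0.0186 and an adjusted p of 0.999, and the exact permutation p was 0.0857. Postn and Sparc are the 2 of 5 genes with an unadjusted p under 0.05 in the pooled comparison, where 4.14% of genes have one. With each tumour left out the exact permutation p for Postn was 0.0857 to 0.143, except without KO479, the KO tumour that lay among the others, where it was 0.0286, the smallest that 35 arrangements can give. It was 0.2 without both KO543 and WT438.

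Tnc (ENSMUSG00000028364, chromosome 4, 63959785 to 64047015, minus strand) stood at 421, 400, 179 and 1077 CPM in KO437, KO445, KO479 and KO543, at 421 and 316 CPM in Het563 and Het569 and at 148 and 273 CPM in WT438 and WT568. KO543 was far above every other tumour, KO437 and KO445 were at the level of Het, and KO479 lay between the WT tumours. The log2 fold change was 1.30 against WT (SE 0.60, interval -0.04 to 2.64, edgeR adjusted p = 0.950), 0.50 against Het and 0.85 against both pooled. Without KO543 these values were 0.67, -0.14 and 0.20, and without both KO543 and WT438 the value against WT was 0.29. KO543 also had the lowest summed macrophage markers, 929 CPM against 1808 to 2145 CPM in Het and WT, and the lowest summed platelet markers, 17.0 CPM against 37.3 to 64.8 CPM in Het and WT. It was lowest as well for endothelial markers (141 CPM against 173 to 239 CPM in Het and WT) and lymphocyte markers (1.34 CPM against 1.67 to 7.41 CPM in Het and WT). KO445 had nearly the same lymphocyte sum, 1.43 CPM. Its summed fibroblast markers, 11566 CPM, were above those of Het and WT. The part of these sums in its Tnc level was not tested.

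Thbs1 (ENSMUSG00000040152, chromosome 2, 118111876 to 118127133, plus strand) stood at 1463, 890, 1152 and 1307 CPM in KO tumours, 1301 and 890 CPM in Het tumours and 1281 and 929 CPM in WT tumours. The groups covered the same range, with a pooled log2 fold change of 0.13 (SE 0.20, interval -0.31 to 0.57). Tgfbi (ENSMUSG00000035493, chromosome 13, 56609523 to 56639562, plus strand) stood at 830, 635, 667 and 518 CPM in KO tumours, 678 and 697 CPM in Het tumours and 540 and 813 CPM in WT tumours. Here too KO tumours lay on both sides of the others, with a pooled log2 fold change of -0.04 (SE 0.18, interval -0.43 to 0.36).

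Het against WT, with 2 tumours each, had 0 of 5 genes called by edgeR, 0% of all genes called and 0 of 5 at an unadjusted p under 0.05 against 1.93% of genes. The number of genes behind such shares moved with single libraries, from 121 to 2912 of all genes in Het against WT, 500 to 3091 in KO against WT and 64 to 562 in KO against Het with each tumour left out. DESeq2 and limma called 0 of 5 in the tumour comparisons, while edgeR without a filter on low counts called Tnc in KO against WT (edgeR adjusted p = 4.11e-05). That fit gave no gene a spread of its own. Tnc was higher in both Het tumours than in both WT tumours (369 ± 74.0 CPM in Het and 210 ± 88.5 CPM in WT, log2 fold change 0.81, SE 0.65, 0.45 without WT438 and 1.32 without WT568), and 28.6% of all genes did not overlap in this comparison. The other 4 log2 fold changes lay between -0.01 and 0.07. With 6 arrangements an exact permutation test cannot go below 0.333.

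Spread within groups set the 5 genes apart from each other. The within-group SD of log2 CPM in Met5a was 1.25 for POSTN, 1.21 for THBS1, 1.08 for TNC, 0.72 for TGFBI and 0.65 for SPARC, against a median of 0.42 over all tested genes. POSTN exceeded 95.5% of tested genes in this SD, THBS1 94.9%, TNC 92.2%, TGFBI 78.5% and SPARC 73.6%. Among the 500 genes nearest in level to each, the shares were 99.4, 99.4, 99.6, 96.6 and 91.4%. In the tumours the SD was 0.88 for Tnc, above 87.5% of genes, but 0.12 for Sparc, above only 4.49%. Postn and Thbs1 had 0.33 each and Tgfbi 0.29, against a median of 0.34 over all genes. Among the 500 genes nearest in level, Tnc exceeded 99.2%, Postn 81.8%, Thbs1 68.2%, Tgfbi 58.2% and Sparc 7.60%. Sparc therefore combined the highest level of the 5 with the smallest spread in tumours.

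**Figure D4:**
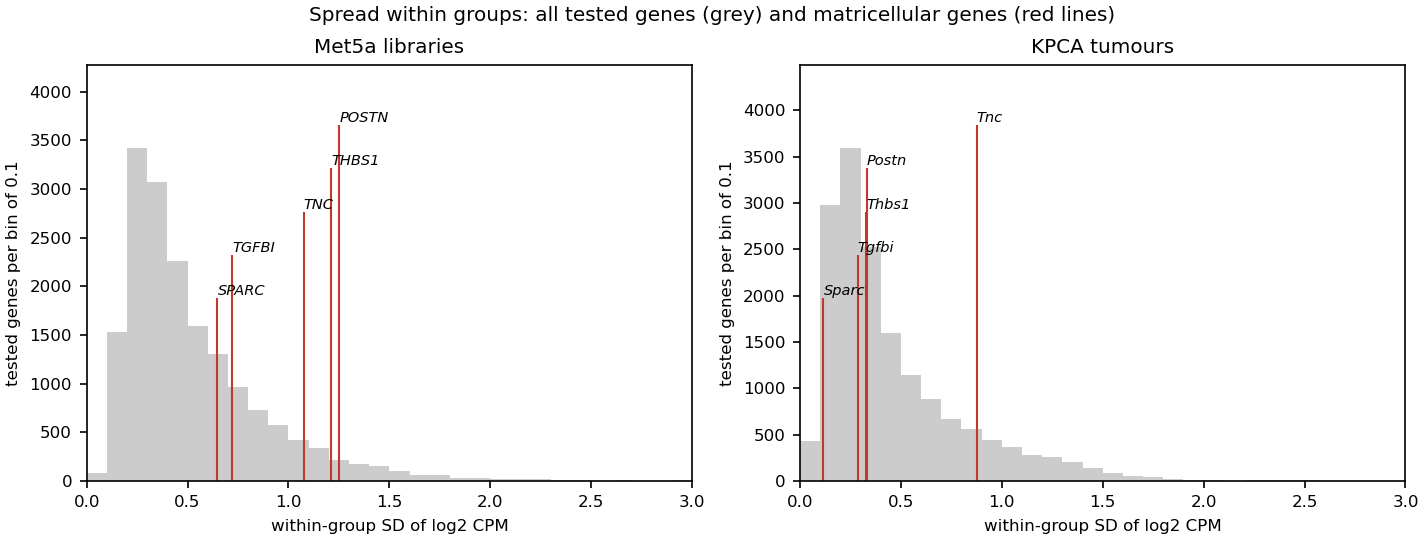
Number of tested genes per bin of within-group SD of log2 CPM (grey bars), in Met5a and in tumours, with red lines at the 5 genes. POSTN, THBS1 and TNC stand in the right tail in Met5a (1.08 to 1.25), and Sparc stands at the left edge in tumours (0.12).

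The 10 pairs of the 5 genes were compared over samples, per species. In Met5a SPARC and TGFBI varied most alike (Pearson's r = 0.76, Spearman's rho = 0.78, n = 10; permutation p = 0.0106 and 0.0103, adjusted over 10 pairs 0.106 and 0.103), and r was 0.83 without V1 1 and CTR 2. TNC with POSTN had r = 0.64, which was 0.35 without V3 3 and V1 2, and POSTN with SPARC had r = 0.64. In the tumours Postn and Sparc varied most alike (r = 0.81, rho = 0.86, n = 8; exact permutation p = 0.0133 and 0.0107, adjusted 0.133 and 0.107), with r = 0.64 without KO445 and KO437. No pair passed adjustment in either species, and the groups enter these values, since the KO means of both genes were higher. Sparc with Tgfbi had the other sign in tumours, where r was -0.35 (exact permutation p = 0.402 before adjustment).

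**Figure D5:**
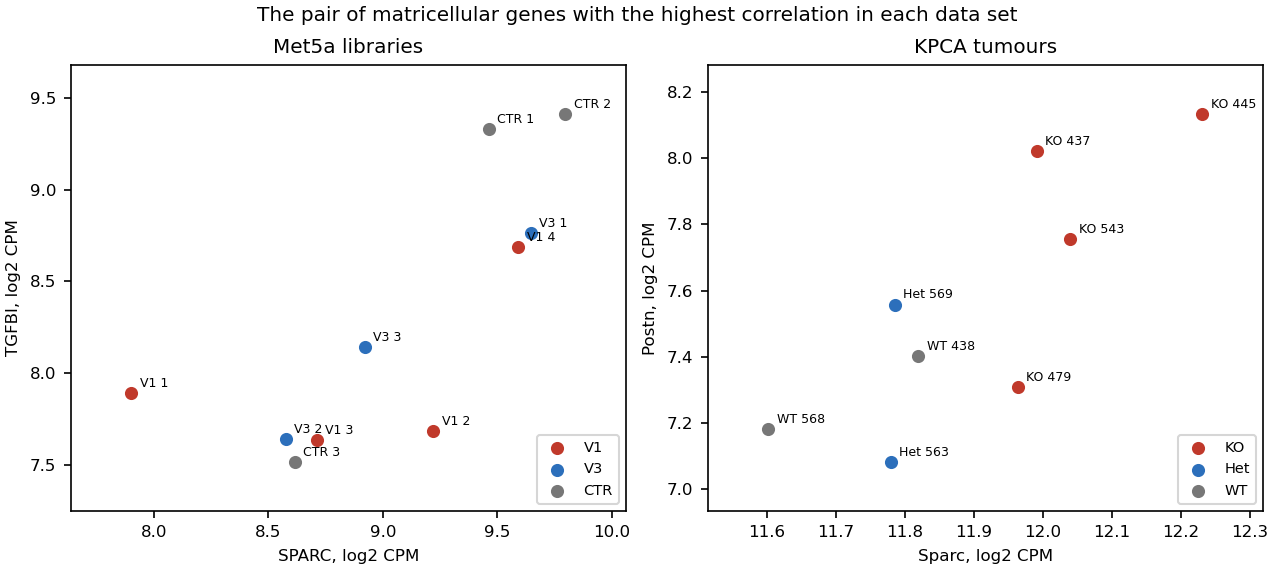
Log2 CPM of TGFBI against SPARC in 10 Met5a libraries and of Postn against Sparc in 8 tumours, 1 point per sample. CTR 1, CTR 2, V1 4 and V3 1 lie at the upper right in Met5a (r = 0.76), and KO445 at the upper right in the tumours (r = 0.81).

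Over all protein-coding genes with a mean of at least 5 CPM, up to 3 were named as most alike to each of the 5 by Pearson's r of log2 CPM. In the 10 Met5a libraries (10965 genes) these were EPSTI1, TMSB4X and ARHGAP31 for TNC (r = 0.95, 0.94 and 0.93), TELO2, NQO1 and PPIF for THBS1 (0.97, 0.97 and 0.96), DDX1, SEPHS1 and S100A10 for POSTN (0.94, 0.94 and 0.93), DROSHA and TNS1 for SPARC (0.96 and 0.95), and RCC2, FNDC10 and NDUFAF7 for TGFBI (0.94, 0.92 and 0.92). In the 8 tumours (10760 genes) they were Tmtc2, Syn1 and Smad3 for Tnc (0.98, 0.97 and 0.97), Fbxo32, Srgap3 and Col18a1 for Postn (0.97, 0.97 and 0.96), and Glce, Nt5e and Col4a1 for Sparc (0.95, 0.95 and 0.94). Smad3 carries TGF-beta signals to the nucleus, and Col18a1 and Col4a1 encode collagens of basement membranes. For Thbs1 they were AI464131, Cast and 1600012H06Rik (0.94, 0.93 and 0.92), and for Tgfbi Ppox, Stk11ip and Orc3 (0.97 each). These are the tops of long rankings over few samples and are given as a description. None of the 5 was among the 3 most alike of another.

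Other genes of the matricellular system were followed as lists. In Met5a no member of any list was called by edgeR in any of the 3 comparisons. Over all tested genes, 7.71% had an unadjusted p under 0.05 in V1 against CTR, 4.23% in V3 against CTR and 4.01% in V1 against V3. Collagens and other matrix partners were mostly lower with either receptor form: 16 of 17 tested in V1 against CTR (median log2 fold change -0.68, against 0.01 for all genes, 7 with an unadjusted p under 0.05) and 16 of 17 in V3 against CTR (-0.62, 5 with an unadjusted p under 0.05), comparisons that share their controls. LOX, the collagen crosslinking enzyme, averaged 1.84 CPM in V1 (0.793 to 3.47) and 21.2 CPM in CTR (4.77 to 53.6). COL1A1, the main chain of collagen I, averaged 29.0 CPM in V1 (13.9 to 60.4) and 119 CPM in CTR (34.9 to 212). COL6A3 had a mean of 1.42 CPM in V1 and 61.1 CPM in CTR, where it ran from 2.08 to 171 CPM. LOX separated V1 from CTR and the other 2 genes overlapped, and none passed adjustment (edgeR adjusted p = 0.569 each). Groups did not overlap for 6.61% of all genes in V1 against CTR, and the genes named were picked for a small p. Without CTR 3 and V1 1 the counts were again 16 of 17 in each comparison, with medians of -0.85 and -0.73. Summed fibroblast markers in Met5a (5 of 9 tested) were 93.8 to 844 CPM in V1, 103 to 542 CPM in V3 and 457 to 1348 CPM in CTR, and their part was not tested. They share COL1A1, COL3A1 and DCN with the matrix partners. COL3A1 alone averaged 352 CPM in V1, 234 CPM in V3 and 753 CPM in CTR.

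The other matricellular genes tested in Met5a numbered 14. Of these 8 were higher and 6 lower in V1 against CTR (median 0.16), 8 and 6 in V3 against CTR (0.20), and 9 and 5 in V1 against V3 (0.16), with 1, 3 and 1 at an unadjusted p under 0.05. The shares of all tested genes at such a p were 7.71, 4.23 and 4.01% in the same order. THBS2, a close relative of THBS1, averaged 75.9 CPM in V1 (34.4 to 173) and 290 CPM in V3 (167 to 442), a log2 fold change of -1.93 (edgeR adjusted p = 0.985), opposite in sign to THBS1. CYR61, a CCN family gene, averaged 1253 CPM in V1 (761 to 1771) and 806 CPM in CTR (619 to 949). Neither difference passed adjustment. Among the receptors of these proteins (17 tested, 1 to 2 at an unadjusted p under 0.05 per comparison) the thrombospondin receptor CD47 averaged 32.1 CPM in V1 and 61.7 CPM in V3 (log2 fold change -0.94, edgeR adjusted p = 0.985). ITGAV, the alpha-v integrin chain that binds periostin and tenascin C, averaged 140 CPM in V1 and 200 CPM in CTR (-0.52, edgeR adjusted p = 0.626), without overlap, and 133 CPM in V3 (-0.59, edgeR adjusted p = 1.00). Groups did not overlap for 6.61% of all genes in V1 against CTR.

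TGF-beta target genes were divided in Met5a: 9 of 16 were higher in V1 against CTR (median 0.01), 3 of 16 in V3 against CTR (-0.31) and 11 of 16 in V1 against V3 (0.22), with 3, 3 and 2 at an unadjusted p under 0.05. Such a p was found for 7.71, 4.23 and 4.01% of all tested genes in the same order. ACTA2, smooth muscle actin, averaged 5.69 CPM in V1 (4.80 to 6.72), 18.2 CPM in V3 (6.97 to 30.7) and 22.4 CPM in CTR (9.43 to 44.6). The V1 libraries were under all V3 and CTR libraries, with edgeR adjusted p = 0.985 against V3 and 0.569 against CTR. Groups did not overlap for 4.92% of all genes in V1 against V3 and for 6.61% in V1 against CTR. TGF-beta ligand, receptor and latency genes (14 tested, 1 at an unadjusted p under 0.05 in each comparison) had medians of -0.11, -0.005 and -0.02 in the same order, and proteases that cut matricellular proteins (12 tested) -0.02, 0.07 and -0.27. Of the proteases 2, 0 and 0 had an unadjusted p under 0.05.

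In the tumours too, no list member was called by edgeR. Over all tested genes, 3.98% had an unadjusted p under 0.05 in KO against WT, 1.93% in Het against WT and 1.71% in KO against Het. Matrix partners were higher in KO against WT for 17 of 18 (median 0.42, against -0.01 for all genes, 8 with an unadjusted p under 0.05) and in Het against WT for 18 of 18 (0.33, 1 with an unadjusted p under 0.05). In KO against Het only 10 of 18 were higher (0.06, 2 with an unadjusted p under 0.05). The first 2 comparisons share the WT tumours, and the first and last the KO tumours. Without KO543 and WT438 the counts were 12, 15 and 11 of 18. The summed fibroblast markers, which share collagens with this list, were 10426 to 13236 CPM in KO, 9501 to 9661 CPM in Het and 8037 to 8312 CPM in WT. Their part in the values of this list and of the TGF-beta targets was not tested. Fn1, fibronectin, averaged 15950.1 CPM in KO (13724 to 18592) and 10614 CPM in WT (9735 to 11492), and Bmp1, the procollagen protease that periostin binds, 768 CPM in KO and 495 CPM in WT. Neither gene's groups overlapped, and both had edgeR adjusted p = 0.950. Groups did not overlap for 11% of all genes in KO against WT, and both genes were named for a small p.

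TGF-beta targets were higher in KO against WT for 15 of 16 (median 0.51, 6 with an unadjusted p under 0.05), in Het against WT for 14 of 16 (0.32, 2 with an unadjusted p under 0.05) and in KO against Het for 12 of 16 (0.16, 0 with an unadjusted p under 0.05), with 15, 14 and 10 of 16 without KO543 and WT438. The shares of all genes at such a p were 3.98% in KO against WT, 1.93% in Het against WT and 1.71% in KO against Het. Bhlhe40, a transcription factor that TGF-beta induces, averaged 336 CPM in KO (252 to 419), 299 CPM in Het (283 to 315) and 166 CPM in WT (164 to 167). The ligand Tgfb2 averaged 71.7 CPM in KO (58.5 to 95.9), against 44.4 CPM in WT and Het (32.4 to 49.6), a log2 fold change of 0.69 without overlap (edgeR adjusted p = 0.999). Groups did not overlap for 2.44% of all genes in KO against WT and Het pooled. Of the TGF-beta ligand, receptor and latency genes (15 tested) 12, 7 and 11 were higher in KO against WT, KO against Het and Het against WT, with 3, 1 and 1 at an unadjusted p under 0.05. Lrrc32, which holds latent TGF-beta at the cell surface, averaged 29.2 CPM in KO (26.9 to 33.3) and 18.8 CPM in WT (18.2 to 19.4).

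Other matricellular genes (18 tested) were higher in KO against WT for 12 (median 0.16), in KO against Het for 11 (0.28) and in Het against WT for 8 (-0.06), with 3, 2 and 1 at an unadjusted p under 0.05. Such a p was found for 3.98, 1.71 and 1.93% of all tested genes in the same order. Wisp1, a CCN family gene, averaged 220 CPM in KO (145 to 296), 171 CPM in Het (157 to 184) and 112 CPM in WT (111 to 114), with a log2 fold change of 0.97 in KO against WT (edgeR adjusted p = 0.950). Smoc2, which carries a SPARC-like domain, averaged 36.5 CPM in KO (6.37 to 104) and 8.33 CPM in WT (5.90 to 10.8), so that its difference rests on part of the KO tumours. Receptors (20 tested) had medians of 0.18, 0.03 and 0.13 in KO against WT, KO against Het and Het against WT, with at most 1 at an unadjusted p under 0.05 in each, and proteases (12 tested) 0.17, 0.27 and -0.11. Plau, urokinase, averaged 419 CPM in KO (215 to 726) and 172 CPM in WT (157 to 187), without overlap (log2 fold change 1.28, edgeR adjusted p = 0.950). Groups did not overlap for 11% of all genes in KO against WT.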

How the data were processed

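Bulk RNA was measured in 10 Met5a libraries and 8 KPCA tumours, grouped by title, since every tumour, KO and Het included, carries the genotype tag WT. The authors deposited whole-number counts per gene, used for every test, and FPKM values, used for levels between genes and as an alternative unit. In each library the deposited FPKM equals count over gene length times 1 factor. Aligner, counter, strandedness and mouse build: not given in the sources used here. Human positions match GENCODE 29 on GRCh38, mouse positions are those deposited. Unused per-sample columns numbered 0.

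The 5 genes and the gene lists were chosen with earlier results of these data known. Genes passing filterByExpr (minimum count 10) were tested with the quasi-likelihood test of edgeR 4.0.16 (R 4.3.3) with TMM factors and a coefficient for each group, all libraries of the species together, and with 2 groups for KO against WT and Het pooled (15205 genes). Tests were two-sided, with Benjamini-Hochberg adjustment over all tested genes at 0.05. Standard errors are the log2 fold change over the root of the F statistic. Exact permutation tests used log2 CPM (prior count 2). Correlations used 100000 permutations in Met5a and all 40320 orders in the tumours. List genes are named from the 4 smallest edgeR p of a list in a comparison, and for each of the 5 genes the 3 most alike protein-coding genes (mean CPM of at least 5), of which 1 is not reported here. The test was also run on counts simulated from the fitted dispersions, which hold no libraries that stand apart. Its outcome there is not reported here.

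Alternatives were RLE factors, no filter, DESeq2 1.42.0 (Wald test), limma 3.58.1 on log2(FPKM + 1) and log2(FPKM + 0.1) (genes reaching an FPKM of 1), the compared groups alone, each library left out, a replicate block, tumour numbers under or over 500 as a covariate, and a 3-group fit. Leaving out CTR 3 with V1 1, or KO543 with WT438, was chosen after seeing the data.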

Additional observations from a re-analysis of the deposited data

How the results depend on the processing

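Across 29 alternatives 590 fold changes of the 5 genes were computed: 560 kept their direction, 30 turned sign and 3 were called. All 3 came from edgeR with no filter on low counts, for THBS1 in V1 against CTR (adjusted p = 0.0410), TNC in V1 against V3 (0.0292) and Tnc in KO against WT (4.11e-05), so 1 of 5 was called in each of those comparisons. In that fit the spread of each gene was pulled harder to the common trend (prior degrees of freedom 64.7 against 4.58 in Met5a), and the fitted variance of TNC was 1.42 against 4.68 with the filter. In the tumours the prior degrees of freedom were infinite, against 4.68 with the filter, so no gene kept a spread of its own. The fitted variance of Tnc was 0.809 against 4.72 with the filter. It called 533, 226 and 75 genes in V1 against CTR, V3 against CTR and V1 against V3, and 276, 154 and 63 in KO against WT, KO against Het and Het against WT. DESeq2 called 66, 9 and 1 genes in the Met5a comparisons, and 2, 1 and 2 in KO against WT, KO against Het and KO against WT and Het pooled. Limma called 1 gene in KO against WT at either pseudocount, 0 in V1 against CTR with log2(FPKM + 0.1) and 1 in V3 against CTR with log2(FPKM + 1). With the compared groups alone edgeR called 0 genes in V1 against CTR and 1 in V3 against CTR. Without both CTR 3 and V1 1 it called 0 in V1 against CTR. With each library left out the called genes ran from 0 to 6 in V1 against CTR, 0 to 3 in V1 against V3, 0 to 1 in V3 against CTR, and 0 to 2 in KO against WT and in Het against WT.

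Same-numbered Met5a libraries had deviations from their group means correlated at -0.19 to 0.29. Differently numbered libraries were not compared in this way, so whether the replicate numbers pair the libraries cannot be told. With the replicate block edgeR called 0 genes in V1 against CTR and 3 in V1 against V3, and POSTN in V1 against CTR was 0.049.

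The cause of a turned sign was not tested. Leaving out each library, log2 fold changes ran from -0.86 to 0.023 for POSTN in V1 against CTR, -0.14 to 0.76, -0.40 to 0.23 and -0.50 to 0.13 for POSTN, SPARC and TGFBI in V1 against V3, and -0.62 to 0.035 and -0.055 to 1.85 for SPARC and THBS1 in V3 against CTR. In KO against WT they ran from -0.29 to 0.29 for Tgfbi and -0.095 to 0.37 for Thbs1, and in KO against Het from -0.18 to 0.049 for Tgfbi, -0.12 to 0.43 for Thbs1 and -0.14 to 0.78 for Tnc. In Het against WT they ran from -0.21 to 0.27 for Postn, -0.039 to 0.20 for Sparc, -0.22 to 0.35 for Tgfbi and -0.30 to 0.26 for Thbs1, and for Tgfbi in KO against WT and Het pooled from -0.17 to 0.061. Without both CTR 3 and V1 1 SPARC was 0.10 in V1 against V3. Without both KO543 and WT438 Tnc was -0.16 in KO against Het and -0.025 in KO against WT and Het pooled, Tgfbi was 0.034 in KO against Het and -0.22 in Het against WT, and Thbs1 was 0.26 in Het against WT. Thbs1 in Het against WT was 0.0018 with no filter and 0.034 with the number covariate.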
